A study of Homo sapiens with 6 samples.

Results

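The genes described here encode collagen chains, laminin chains and 8 enzymes that modify collagen. The rule goes by gene name: collagen symbols of the form COL, a number, A and a number, laminin symbols starting LAMA, LAMB or LAMC, and the enzyme genes P4HA1, P4HA2, PLOD1, PLOD2, PLOD3, LOXL1, LOXL2, LOXL3 and LOXL4. The rule found 43 of the 14034 rows of counts, 26 of them collagen chains, 9 laminin chains and 8 enzymes. In GENCODE 29, 65 protein-coding genes carry a name of this kind. The other 22, among them COL1A2, COL3A1, LAMA1 and LOXL2, had no row of counts under these names and could not be analysed here.

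The cells were JHH-4, an established line from a human hepatocellular carcinoma that the labels call epithelial-like. RNA was sequenced and counted per gene in 3 control libraries, whose genotype label is WT, and in 3 others after miR-885-5p had been overexpressed, the primary microRNA being supplied on a plasmid. Whether miR-885-5p was raised could not be read from these counts. What the control cells were given is not stated in the labels, so delivery of the plasmid and the microRNA cannot be told apart. The submitters describe the 3 libraries of each group as technical replicates, and the p-values below therefore measure only the spread between such libraries. Total counts ran from 46382314 to 56409821 per library, and these 43 genes took 0.339 to 0.345% of them in control and 0.364 to 0.374% with miR-885-5p.

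Collagens are trimers of alpha chains wound into a triple helix, and a trimer may hold copies of a single gene's chain or chains of several genes. Fibrillar collagens form the cables of connective tissue, collagen IV forms the sheet of the basement membrane, and laminins, each a trimer of an alpha, a beta and a gamma chain, form the second sheet to which epithelial cells attach. Inside the cell, prolyl and lysyl hydroxylases modify the collagen chains before they fold. Outside it, lysyl oxidases crosslink them. In liver, fibrillar collagen is known mainly as the product of stellate cells in fibrosis, while tumour cells and hepatocytes also make basement membrane chains.

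The mature microRNA is printed with its seed, bases 2 to 8, in capitals, since the seed sets which messenger RNAs a microRNA can pair with (RefSeq, GRCh38.p14, chromosome 3, bases 10394531 to 10394552, minus strand).
hsa-miR-885-5p: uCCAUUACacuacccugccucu
A 7mer-m8 site in a 3′ UTR reads GTAATGG and an 8mer site reads GTAATGGA. Taking for each gene the longest 3′ UTR in GENCODE 29, 1 of the 43 members (2.33%) held a 7mer-m8 or 8mer site, against 986 of 12308 genes (8.01%) with a 3′ UTR in the whole table. When every annotated 3′ UTR was read, COL21A1 was added through a short alternative transcript, which made 2 of 43 (4.65%) against 8.91% of all genes. Its site is shown because it is the 8mer among the members, with the match in capitals.
COL21A1: acttttaatGTAATGGAaacagaa
The COL21A1 match lies at chr6:56125514-56125521 on the minus strand (GRCh38), 10 bases into a 103-base UTR. COL5A1, the collagen with the largest fall, held no such match in its UTR of 2540 bases, nor did LAMA5 in any annotated 3′ UTR. The 7mer-A1 class, which reads as the 8mer without its first base, is not part of these shares. Outside 8mers, the longest 3′ UTR of COL21A1, COL4A5 and P4HA1 held 1 such match each. Its share over all genes is not given here. A match is a string of letters, and pairing was not measured.

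Members of this set differed in both directions between the miR-885-5p and the control libraries. With edgeR's quasi-likelihood test and a Benjamini-Hochberg adjusted p under 0.05 over all rows, 19 of 43 were higher (44.2%) and 14 lower (32.6%), while 10 did not pass. Over the whole table the shares were 26.3% higher and 26.5% lower. The median log2 fold change was 0.14 for the members and -0.00 for all rows, and the median of its absolute value was 0.46 against 0.24. At least 2-fold differences were found in 5 members upward (11.6%, against 3.11% of all rows) and in 4 downward (9.30%, against 2.29%). The 3 values of one group lay entirely above those of the other in 21 members upward (all rows 30.2%) and 14 downward (all rows 30.3%). The genes with the widest changes were LOXL4, LAMB3, LOXL1, COL15A1 and COL16A1 upward and COL5A1, LAMA5, COL27A1 and COL4A5 downward. Among them LOXL4 and COL4A5 are low genes that may have entered the rows through a single group, as set out below. LAMA4, at 0.99, lay just short of the 2-fold line. The upward count depended on miR-885-5p library 2, without which it was 3, since COL15A1 had a log2 fold change of 0.93 and COL16A1 of 1.00 there.

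**Figure D1:**
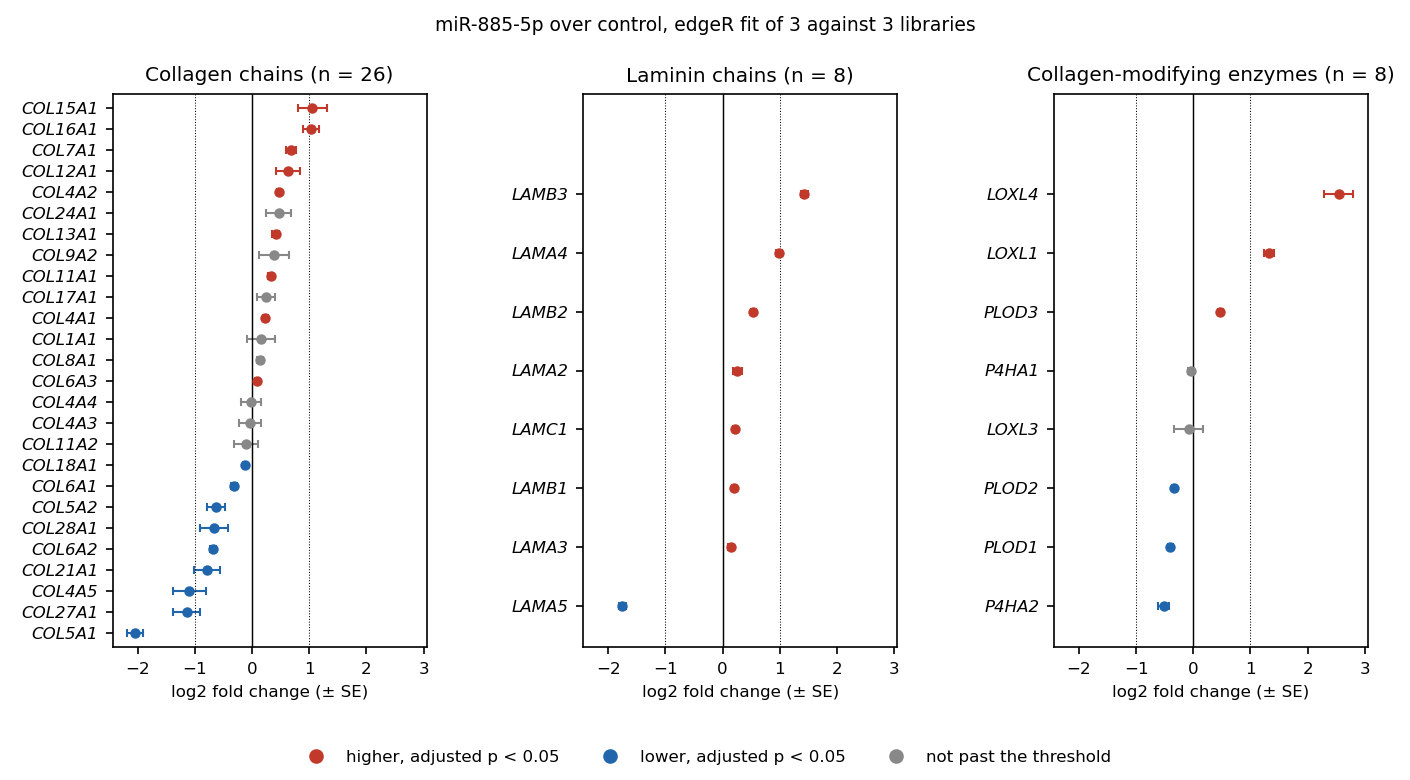
Log2 fold change of miR-885-5p over control for 42 of the genes (points, horizontal axis) with its standard error (bars), in separate panels for 26 collagen chains, 8 laminin chains and 8 enzymes. Dotted lines mark 2-fold. COL5A1 at -2.05 and LAMA5 at -1.76 lie farthest to the left and LOXL4 at 2.55 farthest to the right.

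Levels are given as CPM (counts scaled to library size by the TMM method, per 1e6 counts), with a value for each library in the order 1 to 3, and as mean ± SD over 3 libraries. Standard errors (SE) belong to the log2 fold change. Which of several members is the more strongly expressed is read only from the authors' FPKM, which divide by gene length. Count ratios of gene pairs are not divided by length and serve only to compare the libraries. By FPKM, 6 collagen genes had a mean of at least 10 in both groups: COL18A1, COL6A1, COL4A2, COL6A3, COL11A1 and COL4A1. COL18A1 was the highest of them at 86.9 FPKM in control and 82.8 with miR-885-5p, and LAMB1 was the highest laminin gene at 76.3 and 90.8. The fibrillar genes COL5A1 and COL5A2 stood at 1.17 and 0.777 FPKM in control, so the largest collagen change was in a weakly expressed gene. By CPM, 14 members were under 5 in both groups, and COL4A5, COL21A1, COL9A2 and LOXL4 reached 1 CPM (of the library total) in all libraries of 1 group only. No filter on low values was stated, but the rows may have been cut before deposit. The lowest member count in a library was 18, and filterByExpr, the expression filter used here, removed 0 rows. A cut of that kind could have let those 4 in through that group alone.

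Among the 7 fibrillar collagen genes 3 fell, 1 rose and 3 did not pass, where 52.9% of all rows were called in either direction. COL5A1 (chr9:134641774-134844843, GRCh38, GENCODE 29) encodes the main chain of collagen V, which starts the assembly of fibrils. Its level was 11.5, 10.7 and 11.0 CPM in control and 2.14, 2.83 and 3.02 CPM with miR-885-5p. All 3 control libraries lay above all 3 others, and the log2 fold change was -2.05 (SE 0.14, edgeR adjusted p = 2.23e-06), a fall of 4.14-fold. COL5A2 encodes its usual partner chain. COL5A2 stood at 6.47, 5.34 and 6.03 CPM in control and at 3.69, 3.38 and 4.47 CPM with miR-885-5p (log2 fold change -0.63, SE 0.15, edgeR adjusted p = 0.00622). Both chains of collagen V thus fell, by unequal amounts: the ratio of COL5A1 to COL5A2 counts was 1.77, 2.00 and 1.82 in control and 0.58, 0.836 and 0.675 with miR-885-5p.

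COL27A1, a fibrillar chain of cartilage, fell from 4.2, 2.61 and 3.21 to 1.4, 1.34 and 1.82 CPM (log2 fold change -1.14, SE 0.23, edgeR adjusted p = 0.00239). Its groups did not overlap, and without control library 1 the value was -0.94. COL11A1, the strongest fibrillar gene here at 23.6 FPKM in control and 30.9 with miR-885-5p, went the other way. It rose from 195, 193 and 178 CPM to 234, 232 and 243 CPM (log2 fold change 0.32, SE 0.04). COL11A2, which encodes another chain of collagen XI, was near 1.86 ± 0.296 and 1.73 ± 0.192 CPM in the 2 groups (n = 3 each), and COL24A1 was at 1.87 ± 0.226 and 2.58 ± 0.557 CPM. Neither passed the threshold. COL1A1, the main chain of collagen I, read 7.0, 3.99 and 3.35 CPM in control and 5.28, 5.59 and 5.14 CPM with miR-885-5p. Control library 1 was the highest of the 6 and the other control libraries the lowest. Its log2 fold change of 0.16 (edgeR adjusted p = 0.600) became 0.54 (adjusted p = 0.0238) without control library 1 and -0.04 without control library 3.

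The chains of collagen IV did not move together. COL4A1 and COL4A2 encode the ubiquitous chains of basement membranes. COL4A1 was 111, 109 and 105 CPM in control and 124, 126 and 132 CPM with miR-885-5p (log2 fold change 0.23, SE 0.04). COL4A2 rose more, from 235, 238 and 230 CPM to 314, 330 and 328 CPM (log2 fold change 0.47, SE 0.04, edgeR adjusted p = 5.84e-06). The groups did not overlap for either gene. The count ratio of COL4A2 to COL4A1 went from 2.11, 2.19 and 2.18 to 2.52, 2.61 and 2.49. COL4A5 encodes a chain of specialised basement membranes. It fell from 1.30, 1.53 and 1.30 CPM to 0.382, 0.746 and 0.784 CPM (log2 fold change -1.10, SE 0.29, edgeR adjusted p = 0.00978), with raw counts of 62 to 72 in control and 18 to 43 with miR-885-5p. Without miR-885-5p library 1 its value was -0.84. COL4A3 and COL4A4, which encode its usual partner chains, had log2 fold changes of -0.03 (SE 0.20) and -0.01 (SE 0.18) and did not pass.

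COL4A1 and COL4A2 lie head to head on chromosome 13 and are transcribed outward from a shared promoter. Their RefSeq starts, bases 110307157 and 110307284 (GRCh38.p14), leave 126 bases between them, printed 5′ to 3′ on the plus strand from chr13:110307158-110307283 because both genes rose. The capitals mark CCAAT and GGGCGG, searched on both strands.
COL4A1 to COL4A2: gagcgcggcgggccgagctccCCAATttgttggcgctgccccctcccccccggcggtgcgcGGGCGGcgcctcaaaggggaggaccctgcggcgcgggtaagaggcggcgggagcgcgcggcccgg
The stretch holds 1 of each motif and is 80.2% G and C. In RefSeq promoter windows of 300 bases, CCAAT occurs in 34.6% and GGGCGG in 44.95% of 35116 windows. Such a window was found for 38 of the 43 members, of which 11 held CCAAT and 32 held GGGCGG. The 35116 windows were not limited to genes with a row of counts, so the members are not compared with a like set. In GENCODE 29 the annotated spans of COL4A1 and COL4A2 overlap instead. COL4A3 and COL4A4 also lie head to head, on chromosome 2, with 111 bases between their GENCODE 29 spans, and neither passed the threshold.

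Collagen VI forms beaded filaments from COL6A1, COL6A2 and COL6A3. COL6A2 fell from 52.2, 52.9 and 54.9 CPM to 33.3, 33.5 and 33.1 CPM (log2 fold change -0.68, SE 0.05, edgeR adjusted p = 2.97e-06). COL6A1, which lies 93.0 kb upstream of it on chromosome 21, fell less, from 231, 225 and 203 CPM to 180, 174 and 177 CPM (log2 fold change -0.31, SE 0.05). For both genes every control library was above every miR-885-5p library. COL6A3, the long chain, on chromosome 2, was 316, 315 and 318 CPM in control and 335, 341 and 334 CPM with miR-885-5p, a difference of 0.09 on the log2 scale (SE 0.03, edgeR adjusted p = 0.0416). The call of COL6A3 ended on leaving out any single library other than control library 3, with adjusted p from 0.0720 to 0.123, and adjusted p = 0.110 with the replicate number as a block. The count ratio of COL6A3 to COL6A1 was 1.37, 1.40 and 1.57 in control and 1.86, 1.96 and 1.88 with miR-885-5p.

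COL7A1 encodes the anchoring fibril that ties the basement membrane of epithelia to the tissue beneath. It rose from 15.3, 14.2 and 13.8 CPM to 22.3, 25.5 and 21.4 CPM (log2 fold change 0.68, SE 0.08, edgeR adjusted p = 1.02e-04), and the groups were apart. COL13A1, a transmembrane collagen found at cell contacts, rose from 21.2, 21.0 and 21.2 CPM to 27.5, 28.2 and 28.5 CPM (log2 fold change 0.41, SE 0.05). COL17A1, the transmembrane collagen of hemidesmosomes, had a log2 fold change of 0.24 (SE 0.16), and COL8A1, a short-chain network collagen, one of 0.14 (SE 0.05). Neither passed the test, although their groups did not overlap, and COL8A1 lay close to the threshold (edgeR adjusted p = 0.0516). It passed without control library 2 (adjusted p = 0.0154), with limma-voom (adjusted p = 0.0481), with upper-quartile or total-count scaling and with a filter at 5 CPM.

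Of the 4 fibril-associated collagens, which sit on the surface of fibrils, 2 rose, 1 fell and 1 did not pass. Of the 2 multiplexins, found in basement membrane zones, 1 rose and 1 fell. Over all rows 26.3% were higher and 26.5% lower, and groups this small are given as counts only. COL16A1, fibril-associated, rose from 2.65, 3.29 and 3.02 CPM to 6.11, 6.46 and 5.81 CPM (log2 fold change 1.04, SE 0.14, edgeR adjusted p = 2.03e-04). COL15A1, a multiplexin, rose from 1.16, 2.14 and 2.19 CPM to 3.65, 4.43 and 3.33 CPM (log2 fold change 1.05, SE 0.25, edgeR adjusted p = 0.00585). In both genes the lowest miR-885-5p library exceeded the highest control library. Control library 1 was the lowest for COL15A1, and without it the log2 fold change was 0.81.

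COL12A1 rose from 1.79, 1.40 and 1.62 CPM to 2.29, 2.92 and 2.22 CPM (log2 fold change 0.63, SE 0.20, edgeR adjusted p = 0.0263), on 66 to 168 reads per library. That call ended without control library 2 (adjusted p = 0.0763), without miR-885-5p library 2 (adjusted p = 0.104) and with the block (adjusted p = 0.0605). COL21A1, whose alternative UTR holds the 8mer, fell from 1.26, 1.29 and 1.44 CPM to 0.742, 0.659 and 0.918 CPM (log2 fold change -0.78, SE 0.23, edgeR adjusted p = 0.0166). Leaving out miR-885-5p library 1 or 2 gave adjusted p = 0.0518 and 0.0639. COL28A1, a collagen related to collagen VI, fell from 2.04, 3.12 and 1.99 CPM to 1.76, 1.51 and 1.24 CPM (log2 fold change -0.66, SE 0.24, edgeR adjusted p = 0.0435). Its control library 2 stood above the rest, and adjusted p = 0.175 without it. Leaving out miR-885-5p library 2 or 3 gave adjusted p = 0.0970 and 0.137, and the block and total-count scaling gave adjusted p = 0.0593 and 0.0563. These 3 low genes therefore sit at the edge of what 3 libraries can call. COL9A2, at 0.802 ± 0.238 CPM in control and 1.05 ± 0.0418 CPM with miR-885-5p (n = 3 each), did not pass.

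COL18A1 encodes the parent of endostatin and is a proteoglycan of the basement membrane. It read 463, 441 and 484 CPM in control and 423, 435 and 417 CPM with miR-885-5p, a log2 fold change of -0.12 (SE 0.04, edgeR adjusted p = 0.0331). The groups were close, with the lowest control library just above the highest of the others. The call ended without control library 1 or 3 or miR-885-5p library 1 or 3 (adjusted p = 0.0955, 0.0605 and 0.109 without the first 3 of these), with the block (adjusted p = 0.0822), with upper-quartile scaling (adjusted p = 0.0600) and with total counts (adjusted p = 0.194). Exons of SLC19A1 on the opposite strand cover 16.4% of its exonic bases. Strand was not stated for these counts, so the reads of such partners cannot be separated.

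**Figure D2:**
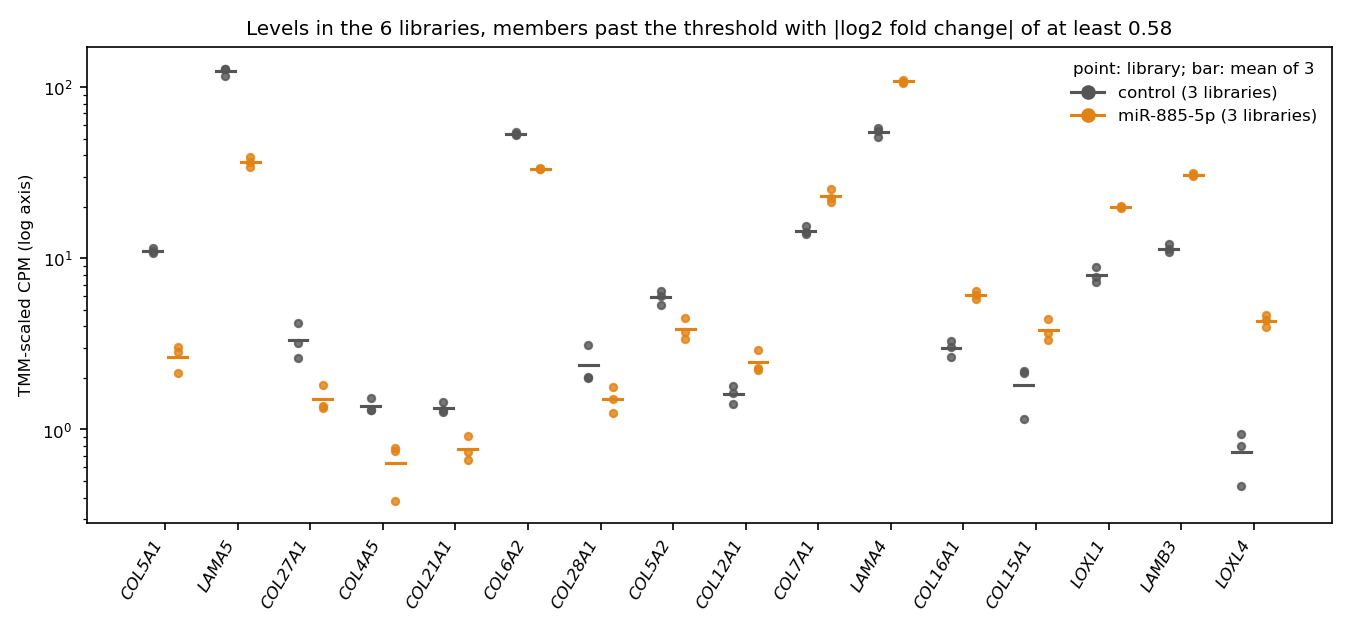
TMM-scaled CPM (log axis) in each of the 6 libraries for 16 members past the threshold with an absolute log2 fold change of at least 0.58, 8 lower and 8 higher, ordered from the largest fall to the largest rise. Points are libraries and bars the mean of 3. In each of the 16 genes the 3 control points and the 3 miR-885-5p points do not overlap, which choosing the genes by these same values favours. Over all rows the groups did not overlap in 30.2% upward and 30.3% downward.

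All 9 laminin genes passed the threshold, 7 upward and 2 downward, against 26.3% of all rows upward and 26.5% downward. LAMA5 (chr20:62307955-62367312) encodes the alpha chain of laminin-511 and laminin-521, the broadly expressed laminins of epithelial basement membranes. It fell from 115, 128 and 128 CPM to 39.1, 36.5 and 34.1 CPM (log2 fold change -1.76, SE 0.06, edgeR adjusted p = 6.78e-08), which is 3.38-fold. LAMA4, the alpha chain typical of vessels and mesenchymal cells, rose from 57.3, 50.9 and 55.3 CPM to 106, 108 and 110 CPM (log2 fold change 0.99, SE 0.05, edgeR adjusted p = 4.04e-07). No library of one group entered the range of the other for either gene. The count ratio of LAMA4 to LAMA5 was 0.496, 0.397 and 0.434 in control and 2.71, 2.95 and 3.23 with miR-885-5p.

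LAMA2, the alpha chain of muscle and nerve basement membranes, was 20.4, 21.8 and 18.8 CPM in control and 24.7, 22.3 and 25.7 CPM with miR-885-5p (log2 fold change 0.25, SE 0.08, edgeR adjusted p = 0.0222). LAMA3, the alpha chain of epithelial laminin-332, was 52.2, 51.3 and 50.2 CPM against 57.7, 57.3 and 54.1 CPM (log2 fold change 0.14, SE 0.05, edgeR adjusted p = 0.0322). Both calls were fragile. For LAMA2 the adjusted p was 0.0538 with the block and 0.0545 to 0.0766 without control library 1 or 3 or miR-885-5p library 1 or 3. For LAMA3 it was 0.0685 with the block and 0.0522 to 0.104 without any one of the control libraries or without miR-885-5p library 1 or 2.

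LAMB3 encodes the beta chain that joins LAMA3 in laminin-332, which anchors epithelial cells through hemidesmosomes. LAMB3 (chr1:209614870-209652466) rose from 12, 11.3 and 10.9 CPM to 30.6, 30.0 and 31.5 CPM (log2 fold change 1.43, SE 0.07, edgeR adjusted p = 2.33e-07). The groups were far apart, and the rise was larger than that of its partner LAMA3. LAMA3 counts per LAMB3 count were 4.34, 4.56 and 4.61 in control and 1.89, 1.91 and 1.72 with miR-885-5p. Of 11 such ratios between chains or subunits, 10 had groups that did not overlap. Each of these 10 had p = 0.1 in an exact two-sided permutation test, the smallest that 3 against 3 allow (adjusted p = 0.110 over the 11). The 11 pairs were chosen after the fold changes were seen, so these p-values are no separate test. Per length LAMB3 stood at 2.56 FPKM in control and 6.92 with miR-885-5p, against 4.52 and 5.12 FPKM for LAMA3.

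LAMB2, LAMB1 and LAMC1 rose as well. LAMB2, found in neuromuscular and kidney basement membranes, went from 71.1, 69.2 and 74.0 CPM to 105, 104 and 102 CPM (log2 fold change 0.54, SE 0.04, edgeR adjusted p = 5.23e-06). LAMB1 and LAMC1 encode the chains shared by most laminins. LAMB1 was 479, 479 and 468 CPM in control and 530, 554 and 551 CPM with miR-885-5p, and LAMC1 was 289, 287 and 270 against 325, 334 and 325 CPM, with log2 fold changes of 0.20 and 0.22 (SE 0.04 each).

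Because each laminin takes an alpha, a beta and a gamma chain, the FPKM of each class were also set as shares of their sum, given here for the alpha and beta genes. LAMA5 held 38.4, 41.5 and 40.8% of alpha-chain FPKM in control and 12.2, 11.5 and 10.6% with miR-885-5p. LAMA4 held 34.7, 31.3 and 34.1% in control and 59.3, 60.5 and 61.7% with miR-885-5p. The leading alpha gene was thus LAMA5 in each control library and LAMA4 in each miR-885-5p library. The summed alpha FPKM changed little in comparison, from 24.3 ± 0.701 to 26.6 ± 0.284 (SD, n = 3). Among beta genes LAMB1 kept the largest share, 84.6 ± 0.562% and 79.0 ± 0.540%, and LAMB3 went from 2.83 ± 0.0654% to 6.02 ± 0.210%. With 3 libraries against 3 an exact two-sided permutation test cannot go below p = 0.1, which 7 of the 9 shares reached (adjusted p = 0.129 over the 9), all except LAMA3 and LAMA2. Shares within a class depend on each other, since they add up to the whole. They also restate differences of genes already called, so these p-values are no separate test. The shares say nothing of protein or of assembled trimers.

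**Figure D3:**
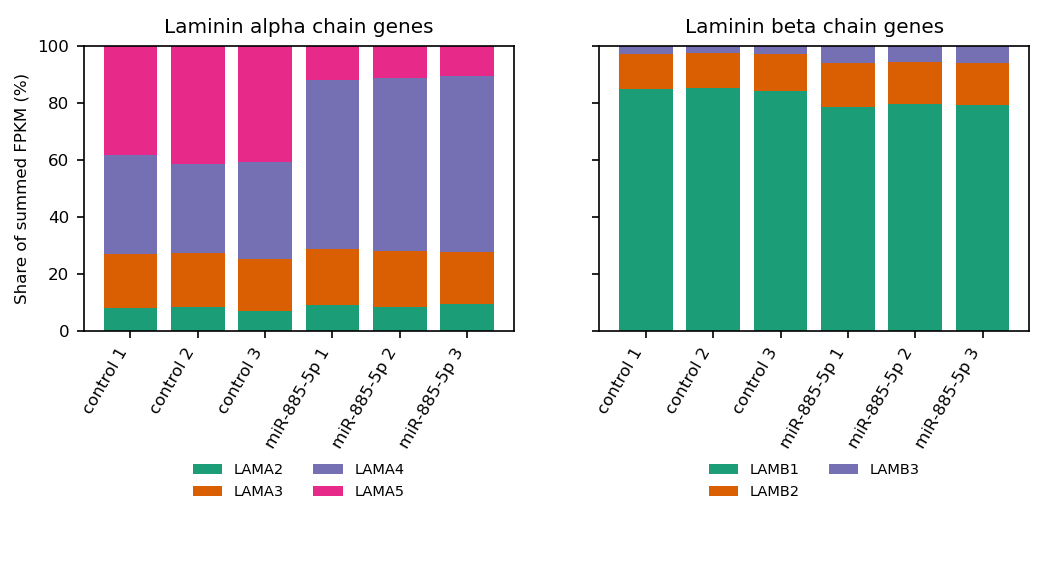
Share of summed authors' FPKM (percent, vertical axis) of each laminin gene within the alpha and beta classes, 1 stacked bar per library. LAMA5 shrinks from 40.3% of the alpha class in control (mean of 3) to 11.4% with miR-885-5p, while LAMA4 grows from 33.4% to 60.5%.

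Of the 8 enzymes, 3 rose, 3 fell and 2 did not pass, against 26.3% of all rows higher and 26.5% lower. The lysyl oxidase-like enzymes, which crosslink collagen and elastin outside the cell, held the largest rise of all 43 genes. LOXL4 (chr10:98247690-98268250) went from 0.946, 0.806 and 0.467 CPM to 4.67, 4.34 and 3.98 CPM (log2 fold change 2.55, SE 0.25, edgeR adjusted p = 2.65e-05). Its reads were 23 to 45 per control library and 208 to 250 per miR-885-5p library. LOXL4 reached 1 CPM (of the library total) in 0 control and 3 miR-885-5p libraries, so it may have entered the rows through the miR-885-5p group alone. LOXL1, needed for elastic fibres, rose from 7.23, 8.89 and 7.75 CPM to 19.8, 19.5 and 20.1 CPM (log2 fold change 1.32, SE 0.09, edgeR adjusted p = 2.09e-06). The groups of both genes were far apart. LOXL1-AS1 overlaps 9.21% of the exonic bases of LOXL1 on the other strand, and its reads cannot be told apart from those of LOXL1 without strand. LOXL3 was at 1.02 ± 0.223 and 0.963 ± 0.0925 CPM (n = 3 each, edgeR adjusted p = 0.800).

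The intracellular enzymes moved less. The lysyl hydroxylase genes PLOD1 and PLOD2 fell and PLOD3 rose. PLOD1 read 145, 147 and 133 CPM in control and 108, 106 and 108 CPM with miR-885-5p, and PLOD2 read 101, 100 and 102 against 78.2, 82.5 and 80.0 CPM, with log2 fold changes of -0.40 and -0.34 (SE 0.04 each). PLOD3, which also glycosylates hydroxylysine, went from 134, 138 and 132 CPM to 188, 193 and 181 CPM (log2 fold change 0.47, SE 0.04, edgeR adjusted p = 7.41e-06). In all 3 genes the groups were separate. P4HA2, an alpha subunit of prolyl 4-hydroxylase, fell from 35.5, 35.9 and 42.6 CPM to 24.2, 29.9 and 25.5 CPM (log2 fold change -0.51, SE 0.09, edgeR adjusted p = 0.00130). P4HA1, another alpha subunit, was at 33.7 ± 0.293 and 32.8 ± 1.62 CPM (n = 3 each) and did not pass.

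The wider pathway was read from 5 lists of genes that are not members. The lists set no direction in advance. For collagen folding and secretion, 11 of 26 genes rose, 6 fell and 9 did not pass (median log2 fold change 0.06). CRTAP, a partner of prolyl 3-hydroxylase, rose by 0.57, MIA3, which loads collagen into transport carriers, by 0.59 and FKBP7, a prolyl isomerase, by 0.67 on the log2 scale. P3H2, a prolyl 3-hydroxylase, changed by -0.70, P4HB, the beta subunit shared by prolyl 4-hydroxylases, by -0.31 and the disulfide isomerase PDIA3 by -0.24. For processing and crosslinking outside the cell, 3 of 9 rose and 1 fell (median 0.24): the transglutaminase gene TGM2 at 0.90, the collagen-binding SPARC at 0.31, the procollagen C-proteinase BMP1 at 0.49 and the N-proteinase ADAMTS14 at -0.87. The lysyl oxidase gene LOX, at 5.69 ± 0.837 and 6.93 ± 0.438 CPM (n = 3 each), did not pass.

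Basement membrane partners went both ways too, with 3 of 11 higher and 5 lower (median -0.13). FBLN1, a secreted glycoprotein that binds laminin, rose from 10.2 ± 0.774 to 44.9 ± 0.929 CPM (n = 3, log2 fold change 2.15), fibronectin (FN1) by 0.63 and TINAG by 0.46. The proteoglycans agrin (AGRN) and perlecan (HSPG2) changed by -0.48 and -0.29, and NID1, which links laminin to collagen IV, by -0.44. Of 19 collagen and laminin receptors 9 rose and 4 fell (median 0.15). The collagen-binding integrin genes ITGA10 and ITGA11 were at least 2-fold higher, at 1.78 and 2.58, ITGA11 being named here after its value was seen. The collagen receptor kinases DDR1 and DDR2 rose by 0.68 and 0.67. ITGB4, the beta chain of the laminin-332 receptor of hemidesmosomes, changed by -0.59, SDC2 by -0.67 and ITGA3, a laminin-binding integrin, by -0.18. In the list of fibril-regulating proteoglycans and glycoproteins 2 of 4 tested genes rose, THBS2 at 0.54 and LUM at 0.70, and MATN2 fell (log2 fold change -0.54). Against 26.3% higher and 26.5% lower in the whole table, these small lists are given as counts only.

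**Figure D4:**
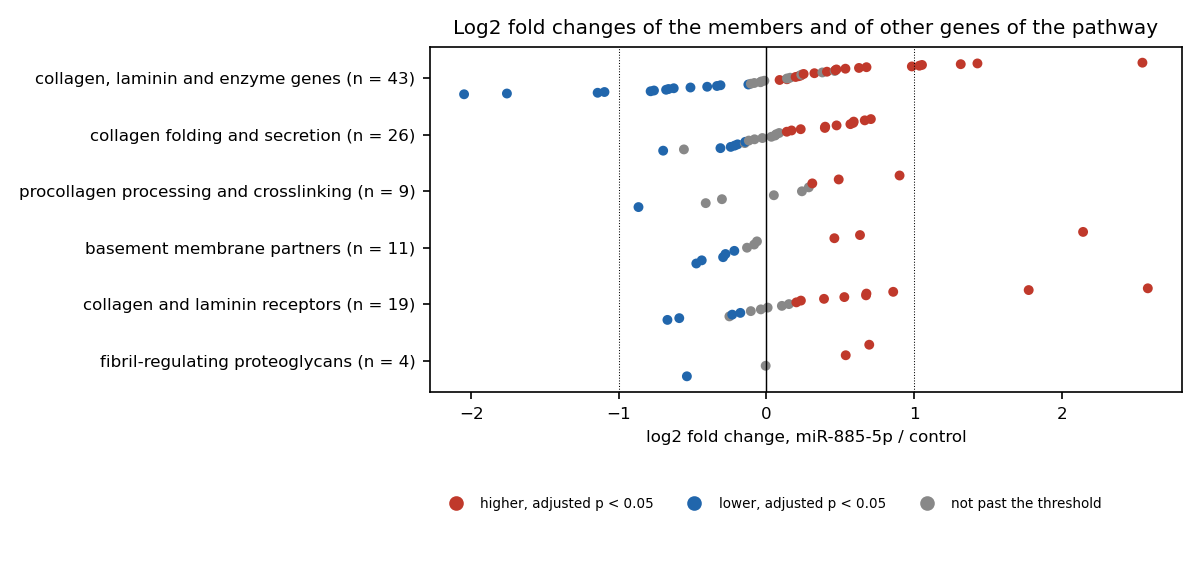
Log2 fold change of miR-885-5p over control (horizontal axis) for the 43 members and for each tested gene of 5 lists from the same pathway, coloured by the direction of its edgeR call. Dotted lines mark 2-fold. Each row holds genes on both sides of 0, and only the member row holds called genes beyond 2-fold on the lower side.

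The tested genes of chromosome 1 were split at the widest gap between them, and some members moved against the median of their side. The genes nearest to each member were not read in this way, and no other chromosome was split. On the side that holds the short arm 387 of 694 tested genes fell and 76 rose (median log2 fold change -0.23). Of the 5 members there, COL16A1 and COL11A1 rose, PLOD1 fell, and COL9A2 and COL24A1 did not pass. On the other side 271 of 575 genes rose and 99 fell (median 0.16), where LAMB3 and LAMC1 rose. Whether these regional shifts had a part in the value of any member was not tested.

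Markers of other cell types were read beside these values. Of 9 fibroblast and stellate cell markers 6 were tested, and 3 of them, RGS5, PDGFRB and LUM, rose, while PDGFRA, LRAT and the member COL1A1 did not pass. Their summed level ran from 227 to 249 CPM in control and from 403 to 414 CPM with miR-885-5p. RGS5 alone was at 217 ± 11.8 and 377 ± 5.73 CPM (n = 3 each). Of 6 endothelial markers 2 were tested, at 1.42 to 2.08 CPM in control and 2.50 to 2.78 CPM with miR-885-5p in sum. PECAM1 rose (log2 fold change 1.06, edgeR adjusted p = 0.0135, and 0.0526 without miR-885-5p library 2) and KDR did not pass. Of 6 leukocyte markers 2 were tested, at 118 to 139 and 125 to 128 CPM in sum, where CD14 fell (log2 fold change -0.83, edgeR adjusted p = 0.0410) and CD68 did not pass. The CD14 call ended with total counts (adjusted p = 0.0524) and without control library 2 or 3 or miR-885-5p library 1 or 3 (adjusted p = 0.0927 to 0.133). Hepatocyte markers had 2 of 11 tested, FGB and SERPINA1, with sums of 27.7 to 30.7 and 12 to 13.3 CPM. FGB fell (log2 fold change -2.20, edgeR adjusted p = 6e-07), and SERPINA1, at -0.08, did not pass (edgeR adjusted p = 0.636). The part of these shifts in the collagen and laminin values was not tested.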

How the data were processed

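Per the labels' protocols, total RNA came from an RNeasy kit and libraries from a NEBNext Ultra kit. Per the submitters' processing notes, GRCh38, StringTie 2.2.1, HISAT2 2.0.4 and DESeq2 1.38.3 were used, without roles. The sources used here do not name the counting tool, its strand setting or the annotation. The deposited table gives whole-number counts, which were tested, and the authors' FPKM, used here for levels between genes and shares of laminin chains. The authors' deposited table also lists, gene by gene, a log2 fold change with its p-value, and names no test. There, 20 members have p under 0.05 upward and 14 downward, and no member called here has the opposite sign. The header states no adjustment for these p-values, while the calls here use adjusted p. Both sets rest on the same libraries, so the shared signs are no separate support. Of 14034 rows, 12420 carry an Ensembl ID, all found in GENCODE 29.

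Counts were fitted with edgeR 4.0.16 in R 4.3.3 (TMM scaling, filterByExpr, which removed 0 rows, quasi-likelihood F test, Benjamini-Hochberg over all rows, threshold 0.05). The SE is the absolute log2 fold change over the square root of F. Counts of libraries in a group differed beyond sampling noise (chi-square per degree of freedom 7.95 to 40.5, against 96.0 to 136 between groups). The fit was tested on simulated data. UTR matches used protein-coding GENCODE 29 transcripts with a stop codon. Values per library are given for members past the threshold with an absolute log2 fold change of at least 0.58 and their partners. From each list the 3 genes per direction with the smallest adjusted p are named, most of them by log2 fold change alone. Members and lists were chosen with earlier results of these data known, and the 11 chain ratios after the values were seen. Alternatives were DESeq2 1.42.0, limma-voom (limma 3.58.1), RLE, upper-quartile and total-count scaling, no filter, 5 CPM in 3 libraries, the replicate number as a block, and leaving out each library. The values of 1 member, which is counted in the totals, and 1 seed site are not reported here.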

Additional observations from a re-analysis of the deposited data

How the results depend on the processing

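Of the 43 member genes, 29 kept their direction and their side of the threshold under every alternative that could be run for them, and the counts of members higher and lower stayed within 1.5 times throughout. A filter at 5 CPM in 3 libraries left 29 members, and with it 3 were at least 2-fold higher and 2 at least 2-fold lower, since fewer genes were tested. Leaving out a library gave 3 to 6 members at least 2-fold higher. With every annotated 3′ UTR 2 members held a 7mer-m8 or 8mer site. The replicate numbers did not pair the libraries (correlation of same-numbered deviations -0.184, -0.0575 and -0.150), and with them as a block 15 members were higher and 12 lower, against 3329 and 3366 of all genes. Signs turned only in members that had not passed the threshold. Without single libraries COL11A2 ran from -0.198 to 0.0278, COL1A1 from -0.0411 to 0.542, COL4A4 from -0.118 to 0.165, LOXL3 from -0.251 to 0.0357 and P4HA1 from -0.0646 to 8.22e-05 on the log2 scale. Total counts gave 0.0129 for COL4A3, 0.0340 for COL4A4 and 0.00708 for P4HA1, while limma-voom gave 0.00644 and the replicate block 0.00302 for COL4A4. The cause was not tested. Total-count scaling moved the share of higher calls among all called genes from 49.8 to 58.2%. In the processing list, 0 genes were lower at 5 CPM and 2 without control library 2, and 1 proteoglycan gene was higher at 5 CPM.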

Other observations

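The authors' FPKM and the counts gave different changes for 2 members, by over 0.3 on the log2 scale. For COL1A1 the FPKM went from 0.666 ± 0.309 in control to 1.06 ± 0.127 with miR-885-5p (SD, n = 3), a log2 ratio of 0.67 against 0.16 from counts. For COL17A1 the FPKM went from 0.490 ± 0.0783 to 0.718 ± 0.129, a log2 ratio of 0.55 against 0.24. In the other 41 members the difference was at most 0.11, and laminin chain shares rest on genes in that range.

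Exons annotated on the opposite strand overlap 15 of the 43 members. The overlap is largest for LOXL3 (19.3% of exonic bases, under DOK1 and HTRA2), COL18A1 (16.4%), LOXL1 (9.21%), PLOD3 (7.56%, under ZNHIT1) and P4HA2 (6.45%). It is 2.53% for LAMA5 and 4.16% for LOXL4.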
